A study of Physcomitrium patens with 4 samples.

Results

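The pubs hy2 double mutant of the moss Physcomitrium patens (ecotype Gransden2004) was compared after 1 hour of red light and in the dark, with 1 sequencing library on each side, so that 2 of the 4 libraries of the series make up this comparison. Both libraries came from chloronema of 10-day-old protonema that had spent 3 days in darkness, and red light of 660 nm was given at 25 °C with a fluence rate of 5 μmol m-2 s-1. The labels describe pubs hy2 as deficient in phytochrome. They do not say from which line or clone the culture came or whether the 2 libraries came from separate cultures. The other 2 libraries were wild type in the dark and wild type after the same red light, and they are used below only to show where the mutant differs. The dark library was taken at time 0 and no library stayed dark for the further hour, so that effects of red light and of elapsed time cannot be told apart.

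Phytochromes are photoreceptors that switch between a red-absorbing and a far-red-absorbing form. They do so only with a linear tetrapyrrole, a bilin, bound to the protein. HY2 and PUBS are ferredoxin-dependent bilin reductases of the plastid that make such bilins from biliverdin, and phytochrome proteins made without a bilin lack their pigment. Chloronema are the filament cells of a moss that are rich in chloroplasts, and red light is also absorbed there by chlorophyll and its precursor protochlorophyllide.

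Reads were counted for 32273 genes. The 2 mutant libraries held 15098942 (dark) and 22975721 (red light) reads, 1.52 times as many after red light, and 22980 and 23843 genes had at least 1 read. Library sizes were scaled by TMM, a trimmed mean of gene ratios. A gene was called singly mapped when under 0.1 of its reads in each mutant library mapped to several places, which held for 30799 genes. Of these, 17499 were measured, meaning that they had at least 50 reads in the 2 mutant libraries together. The gene identifiers carry no names in the files and 0 of the 32273 matched the RefSeq table, so neither the PUBS and HY2 transcripts, nor markers of chloronema, nor genes of known function could be looked up. Identifiers are given for 2 genes in each direction and ranks for the others.

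A gene is called higher or lower here by size: a fold of at least 2 either way between the 2 libraries, with an exact 95% counting interval (Clopper-Pearson) that excludes 1. There was no replicate, so no p-value was computed. The intervals cover the counting of reads only, which carry no molecular identifiers, and each call compares 2 libraries, not 2 conditions.

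Among singly mapped genes of pubs hy2, 712 were higher (4.07% of those measured) and 340 lower (1.94%) in the red light library. The higher genes outnumbered the lower ones further at larger folds. At 3-fold there were 206 higher and 54 lower genes, at 4-fold 97 and 12, and at 8-fold 18 and 0. In wild type the same limits gave 1019 higher and 931 lower genes of 17307 measured, 5.89% and 5.38%, and 67 and 38 genes at 8-fold. With every mutant library thinned to 15098942 reads, 633 genes were higher and 351 lower in pubs hy2.

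Most of the mutant transcriptome lay close to its dark level. The median log2 fold was 0.01 and the middle 50% of genes lay between -0.24 and 0.28, while 14222 genes (81.3%) differed by less than 1.5-fold. The range from the 5th to the 95th percentile was -0.67 to 0.88 in pubs hy2 and -1.01 to 1.06 in wild type over the 16730 singly mapped genes measured in both genotypes. The counting interval excluded 1 for 10018 genes (57.2%), of which 8966 stayed under the 2-fold limit. With at least 50 reads required, a 2-fold difference is already clear of its counting interval, so the fold limit alone decided the calls. Many calls lay close to the limit, with 174 higher and 118 lower genes within 2.2-fold.

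**Figure D1:**
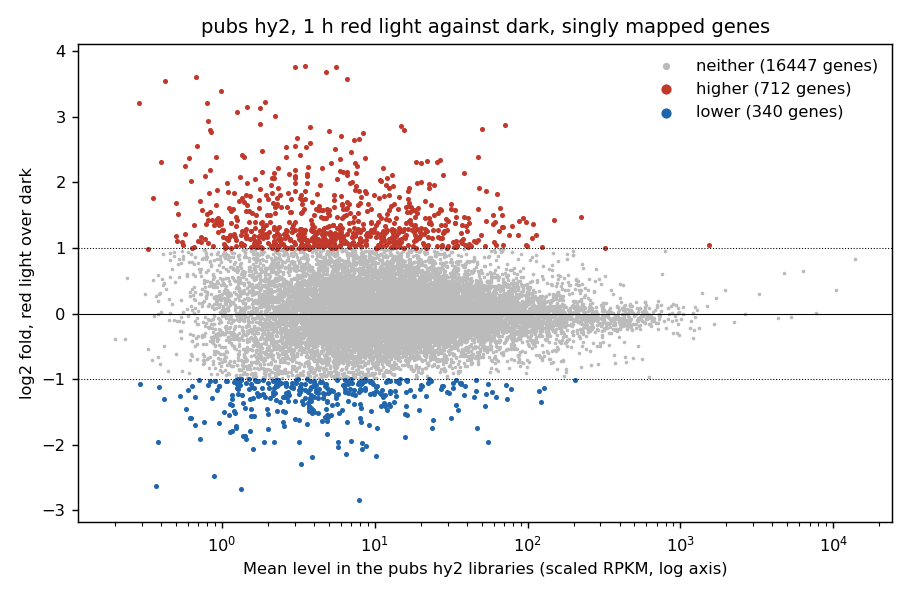
Each point is a singly mapped gene of pubs hy2, placed by its mean level over both mutant libraries (scaled RPKM, log axis) and its log2 fold of red light over dark after adding 0.5 to each count, with dotted lines at 2-fold. The 712 higher genes reach larger folds than the 340 lower ones, and the spread narrows toward abundant genes.

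The genes that differed were mostly weakly expressed. Levels are given as scaled RPKM, reads per kilobase of gene length relative to the TMM-scaled library size. Their medians were 2.85 in the dark and 7.69 in red light for the higher genes, and 5.79 and 2.35 for the lower genes. Over all measured genes the medians were 12.4 and 12.8. The 712 higher genes took 0.836% of the dark mutant's reads and 2.12% after red light, and the 340 lower genes took 0.492% and 0.212%.

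The measured genes were split into 5 bins of equal size by their mean level in the mutant. The share called higher fell from 9.23% in the lowest bin to 1.60% in the highest. The share called lower fell from 5.23% to 0.657%. For wild type, in the same bins, the share called higher was 6.30% in the lowest and 6.22% in the highest, and the share called lower 10.4% and 4.46%. In numbers, the highest bin held 56 higher and 23 lower genes of 3500 in the mutant and 216 and 155 of 3473 in wild type. The SD of the log2 fold in the highest bin was 0.36 in pubs hy2 and 0.67 in wild type, and in the lowest bin 0.72 and 0.83. The bins rank mutant levels only, so a gene of the highest bin can be rare in wild type. An example had 577 and 698 reads in pubs hy2 and 1 and 98 in wild type. It was called higher in wild type. The part of this binning in the wild-type shares and SDs was not tested.

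**Figure D2:**
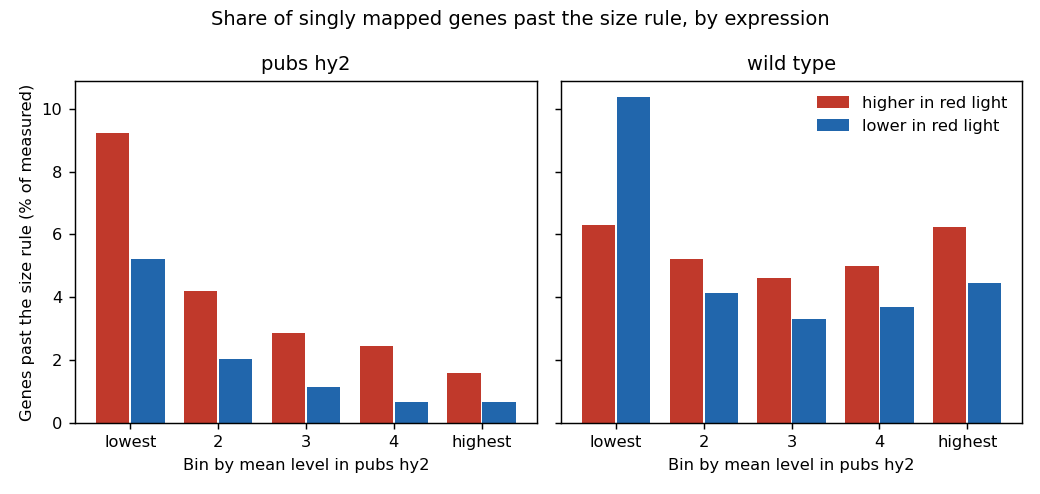
Bars give the share of measured singly mapped genes called higher (red) or lower (blue) after red light, in bins by mean level in pubs hy2, for the mutant (left) and wild type (right). The mutant's shares are largest in the lowest bin and come down to 1.60% and 0.657%, while those of wild type are 6.22% and 4.46% in the highest bin. Genes of the highest bin can be rare in wild type, and the part of this in its shares was not tested. The lowest bin had far fewer reads per gene, and the part of read number was not tested either.

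Gene length showed a weaker gradient. Of 5 equal bins by length, in the shortest (0.063 to 1.065 kb) 215 of 3506 genes were higher and 137 lower, and in the longest (2.669 to 15.78 kb) 92 and 41 of 3499. Short genes had fewer reads, with medians of 141.0 in the dark and 214.0 in red light against 493.0 and 769.0 in the longest. The part of read number in the length gradient was not tested.

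The most abundant transcripts of the mutant showed small differences. Of the 100 singly mapped genes with most reads in the dark, 1 was higher and 0 were lower in red light, and 92 lay within 1.5-fold, with folds from 0.513 to 2.07. In wild type 14 of these 100 were higher, 2 were lower and 68 lay within 1.5-fold. The 100 genes were ranked by the mutant's dark reads, and some were less abundant in wild type. The gene at rank 5 had 58562 dark reads in the mutant and 5377 in wild type. The gene that ranked first in the dark mutant had 135775 reads there and 208342 in red light, 0.899% and 0.907% of all reads and a fold of 1.00. The gene that ranked first in red light had 99263 and 269748 reads, 0.657% and 1.17% of the library, a fold of 1.78 (1.76 to 1.79) that stays under the 2-fold limit. Its wild-type reads were 220725 and 347037, a fold of 1.15.

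The highest folds belonged to rare transcripts. The 15 singly mapped genes with the highest folds had 0 to 23 dark and 49 to 430 red light reads, and 12 of them lay in the lowest expression bin. Pp1s72_101V6 (length 0.351 kb) ranked first, with 2 dark and 52 red light reads, a 17.0-fold difference whose counting interval ran from 4.48 to 144.2. Wild type held 10 and 32 of its reads, under the 50 needed to count as measured.

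Further down this ranking the gene at rank 7 was better covered. It had 23 dark and 430 red light reads, 12.2-fold higher (interval 8.04 to 19.5), and its wild-type reads were 73 and 1040, 10.5-fold higher. At rank 12, 8 and 114 reads were counted in pubs hy2 and 27 and 337 in wild type, folds of 9.32 and 9.17. The folds of these 2 genes were nearly the same in both genotypes. Other genes of this ranking were called in the mutant and not in wild type. At rank 3 the gene had 4 and 83 reads in pubs hy2 and 86 and 89 in wild type, a fold of 13.6 (5.11 to 51.0) against 0.760. Rank 6 was held by a gene with 12 and 245 reads in pubs hy2 and 173 and 403 in wild type, a fold of 13.4 (7.51 to 26.2) against 1.71. In both of these genes the mutant's dark count was the low one of the 4. Of the 15 genes, 6 were also higher in wild type, 5 were called neither, 2 were lower and 2 were not measured there.

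High folds in the top expression bin gave a different picture. The bin ranks levels per kilobase, so short genes with few reads enter it. Ranks 5 and 10, 0.093 and 0.120 kb long, had 27 and 158 reads, and 54 and 236 reads, in pubs hy2. Pp1s17_201V6 (length 1.206 kb) had the highest fold of the top expression bin, with 303 dark and 3400 red light reads, 7.34-fold higher (6.52 to 8.28). Wild type held 1952 and 8514 of its reads, 3.20-fold higher, so that its mutant level was below wild type in both lights. Next came a gene with 166 and 1788 reads in pubs hy2, 7.05-fold higher, and 79 and 4520 reads in wild type, 42.0-fold higher. The gene at rank 3 had 175 and 1411 reads in pubs hy2 and 97 and 4005 in wild type, folds of 5.27 and 30.3. Rank 8 of this bin belonged to a gene with 621 and 2887 reads in pubs hy2 and 354 and 8574 in wild type, folds of 3.04 and 17.8. In these last 3 genes the mutant started from more reads in the dark and ended with fewer in red light than wild type. Of the 10 genes, 8 were higher in wild type as well and 1 was not measured there. The remaining gene, at rank 9, had 375 and 1726 reads in pubs hy2 and 6161 and 4957 in wild type, folds of 3.01 and 0.591.

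The lowest folds were smaller in size. The 10 singly mapped genes with the lowest folds had 42 to 311 dark and 10 to 105 red light reads, and folds from 0.133 to 0.237. Pp1s72_21V6 (length 0.240 kb) ranked first, with 49 and 10 reads, a fold of 0.133 (0.0603 to 0.267). Wild type held 43 and 49 of its reads, a fold of 0.837. Of these 10 genes, 1 was also lower in wild type, 1 was higher, 4 were called neither and 4 were not measured. The gene that was lower in both, at rank 6, is the deepest drop in wild type among the 10, with 440 and 28 reads there against 215 and 72 in pubs hy2.

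In the top expression bin the lowest folds had the same direction in both genotypes where measured. Pp1s7_331V6 (length 0.156 kb) led with 199 dark and 78 red light reads, a fold of 0.256 (0.195 to 0.335). Its wild-type reads were 112 and 58, a fold of 0.380. The gene at rank 5 of this bin had by far the most reads, with 7900 and 4738 reads in pubs hy2 and 27082 and 8902 in wild type, folds of 0.392 (0.378 to 0.407) and 0.241. Of these 5 genes, 4 were lower in wild type and 1 was not measured there, and the first 4 were only 0.096 to 0.309 kb long.

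Whether a gene called in the mutant was also called in wild type varied with its expression bin. The 2 pairs of libraries have no library in common. Of the 16730 genes measured in both genotypes, 631 (3.77%) were higher and 261 (1.56%) lower in the mutant. Of these 631 genes, 256 were higher in wild type too, 40.6% of the mutant list and 28.1% of the 912 genes on the wild-type list. Over all 16730 genes, 5.45% were higher and 5.07% lower in wild type. In the lowest expression bin 64 of 265 higher genes (24.2%) were higher in wild type. It was 56 of 134, 47 of 94 and 52 of 84 in the next bins and 37 of 54 (68.5%) in the highest. Over all genes measured in wild type, 6.30% of the lowest bin and 6.22% of the highest were higher there. The median log2 fold of the higher genes was about equal in pubs hy2 across bins, 1.29 in the lowest and 1.29 in the highest. The wild-type median of these genes was 0.29 in the lowest and 1.43 in the highest. The genes were listed for their fold in the mutant, a choice that favours larger values there. The lowest bin also had far fewer reads per gene than the highest. The part of read number in these differences between bins was not tested.

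Of the 261 lower genes measured in both genotypes, 49 were lower in wild type, 18.8% of the mutant list and 5.77% of the 849 genes on the wild-type list, and 20 were higher. Over all 16730 genes the wild-type shares were 5.07% lower and 5.45% higher. By expression bin the share of the mutant's lower genes that were lower in wild type was 13.1% (18 of 137) in the lowest and 40.9% (9 of 22) in the highest. Over all genes of these bins measured in wild type it was 10.4% and 4.46%, so the lowest bin lay near its base share. Across the genes of the lowest bin the log2 folds of the 2 genotypes had correlations of 0.20 (Pearson) and 0.13 (Spearman). In the highest bin these were 0.47 and 0.39. The genes are not independent, and their counts share the depth of their libraries. The part of read number, which was far lower in the lowest bin, was not tested here either.

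**Figure D3:**
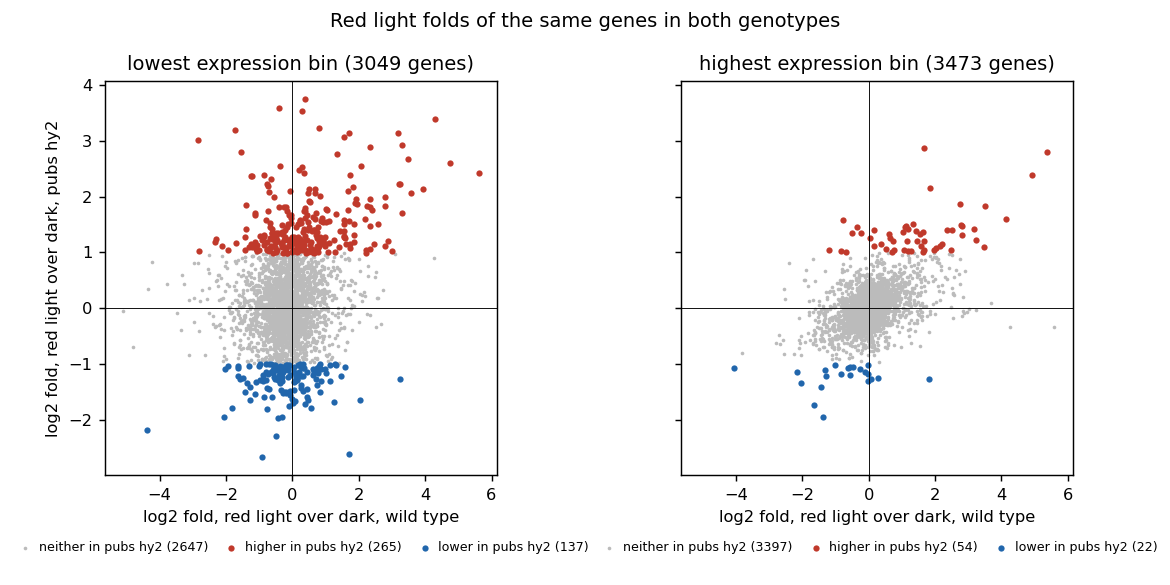
Log2 folds of red light over dark in wild type (x axis) and pubs hy2 (y axis) for singly mapped genes measured in both genotypes, in the lowest (left) and highest (right) expression bin, with genes called in pubs hy2 in colour. In the highest bin 37 of the 54 higher genes of the mutant are called higher in wild type, and in the lowest 64 of 265.

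The higher genes of the mutant fell into groups by what wild type did. The 256 genes higher in both had median folds of 2.67 in pubs hy2 and 3.72 in wild type, and median levels of 5.33 and 16.8 scaled RPKM in the mutant, dark and red. The 336 genes that were called neither in wild type had median folds of 2.42 and 1.17 and lower levels, 2.46 and 6.30. For these genes the median wild-type levels were 5.65 (dark) and 6.47 (red light). The mutant's median lay below that of wild type in the dark and near it after red light. These genes were chosen for a high mutant fold, which a low dark count raises, so the choice itself favours a low dark level. A further 39 genes were lower in wild type, with median folds of 2.29 and 0.385. They made 6.18% of the 631 higher genes measured in both genotypes, near the 5.07% lower in wild type over all 16730. Of the 39 genes, 26 lay in the lowest expression bin. They made 9.81% of the 265 higher genes there, near the 10.4% lower in wild type over that whole bin. The remaining 81 had too few reads in wild type to be measured, with medians of 8.0 and 9.0 there.

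Among the lower genes, the 49 that were lower in both genotypes had median folds of 0.420 in pubs hy2 and 0.349 in wild type. For the 192 called neither in wild type the median folds were 0.439 and 0.903. Their median level in the dark was 5.63 in pubs hy2 and 4.06 in wild type. A high dark count lowers the mutant fold that chose these genes, so the choice itself favours a high dark level. The 79 genes with too few wild-type reads had medians of 46.0 and 27.0 reads in the mutant, against 7.0 and 9.0.

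The mutant's fold divided by the wild-type fold was held to the same limits, with a 95% interval on the log scale. Over the 18625 singly mapped genes that had 50 or more reads in the 4 libraries together this ratio was above 1 for 8.24% and below 1 for 5.57%. Over the 16730 genes measured in both genotypes it was above 1 for 6.89% and below 1 for 4.62%. Of the 631 higher genes 243 had a larger fold in pubs hy2 and 71 a smaller one, and 317 had a ratio inside the limits. In the highest expression bin it was 10 larger and 14 smaller of 54, and in the lowest 141 and 14 of 265. Of the 261 lower genes 124 were reduced more in pubs hy2 and 8 less. These ratios contain the mutant libraries that chose the genes, so larger differences in the mutant are favoured by the choice.

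The largest ratios lay at low read numbers. By ratio rank 4 was the best covered of the 5 highest, with 39 and 271 reads in pubs hy2 and 57 and 5 in wild type, folds of 4.55 (3.24 to 6.53) and 0.0644 (0.0201 to 0.159). At the other end, the gene at rank 3 from below had 176 and 386 reads in pubs hy2 and 2 and 141 in wild type, folds of 1.43 (1.20 to 1.72) and 51.8 (14.1 to 431.7). In this gene the mutant held more reads in the dark than wild type held in red light.

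Few genes with 10 or more reads appeared or vanished altogether. Of the singly mapped genes, 20957 had reads in both mutant libraries and 7645 in neither. Reads in red light only were found for 1503 genes with a median of 3.0 reads, and 132 of them had 10 or more. The highest of these had 0 dark and 62 red light reads, at least 10.7-fold higher by its counting interval and 13.5-fold when 0 is set to 3 reads, the floor used for each library. It had 43 and 77 reads in wild type. Reads in the dark only were found for 694 genes with a median of 2.0, and 28 had 10 or more, up to 16. The red light library was the deeper one, and the part of depth in this difference was not tested.

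The identifiers carry an order number within each of 1118 scaffold groups. Among 10444 pairs of consecutive measured genes, 356 began with a higher gene, and the next gene was higher as well in 19 (5.34%), where 3.74% of all next genes were higher. For lower genes it was 7 of 197 (3.55%) against 1.90%. No run of 3 or more higher genes, or of lower genes, was found. The library protocol states no strand, so reads of overlapping neighbours may be shared between them.

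Genes with shared reads varied more. Over all genes of pubs hy2, 782 were higher (4.22%) and 407 lower (2.2%) of 18531 measured. Of 1032 measured genes outside the singly mapped set, 70 were higher (6.78%) and 67 lower (6.49%). Among the 256 measured genes with at least 0.9 of their reads multi-mapping in a mutant library, 32 were higher and 32 lower, 12.5% each. Their SD of the log2 fold was 2.10, against 0.51 for genes with no multi-mapping reads. Near the limit of 0.1, 7 of 124 measured genes with a share from 0.05 were higher and 0 lower, and from 0.1 to 0.15 it was 8 and 3 of 89. By fold, ranks 2 and 3 of the multi-mapping genes had 1 and 254 reads, and 0 and 587 reads. From below, ranks 2 and 3 had 1138 and 0 reads, and 886 and 0 reads. All 4 had reads in both wild-type libraries, from 84 to 1964. How shared reads were assigned is not given in the sources used here, so the values of these genes are uncertain.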

How the data were processed

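Libraries were made, per the labels' protocols, from poly-A RNA that was fragmented, copied by random priming, barcoded, size-selected at 200 to 400 bp and amplified by 18 PCR cycles. An estimated count per gene was deposited by the authors, 95.4% to 95.6% of them whole, which were rounded here. The authors also deposited RPKM values, gene lengths in kilobases, and the fraction of a gene's reads that are multi-mapping, per the file headers. Aligner, annotation and build are not given in the sources used here. Reads on genes fell short by 10.5% to 12.6% of the library totals that the RPKM values imply.

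Library totals were 17560594 (wild type dark), 24560044 (wild type red light), 15098942 and 22975721 (pubs hy2), with TMM factors of 1.04, 1.02, 0.969 and 0.973 (edgeR 4.0.16, R 4.3.3). Folds, exact Clopper-Pearson intervals and ratios were computed with scipy 1.17.1 in Python 3.11.15. Where 1 library had 0 reads, the fold was computed against 3 counts in it. The 5 expression bins rank the scaled RPKM (scaled reads per kilobase) averaged over the 2 mutant libraries. This rule for calls was also run on simulated counts that carried counting error only. Those counts had no spread between libraries, so they cannot show how the calls hold under variation between cultures or libraries. Genes and lists were chosen with earlier results of these data known. Genes described singly were those with the 15 highest and 10 lowest folds, the 10 highest and 5 lowest of the top expression bin, the 5 with most reads in each mutant library, the 3 highest and 3 lowest multi-mapping genes, and the 5 highest and 5 lowest ratios to wild type; of these, a few that show each pattern are given. Planned lists by gene function could not be used, since no identifier matched a name. No test of red light within pubs hy2, or of its difference from wild type, was possible with 1 library per group; an additive fit over both genotypes was not used here. Alternatives changed the scaling, minimum reads, fold limit, depth, assumed spread and multi-mapping limit.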

Additional observations from a re-analysis of the deposited data

Results flagged for a closer look

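Among the genes described singly, 15 ran in opposite directions after red light in the mutant and in wild type, with both counting intervals clear of 1. The difference was not tested, since each group has 1 library, and most of these genes were picked for extreme folds. The values here are log2 values of the mutant's fold over the wild-type fold, with 0 reads set to 3. Of the 15 highest folds in pubs hy2, rank 10 had a log2 ratio of 5.10 and rank 15 one of 6.07. Of the 10 lowest, rank 3 had -4.38 and rank 8 had -2.69. In the top expression bin the gene at rank 9 had 2.35. Among the most abundant transcripts of the dark mutant, rank 2 had 0.43 and rank 4 had 1.45, with folds of 1.29 and 1.57 in pubs hy2 and 0.956 and 0.575 in wild type. Of the genes with the highest ratios, ranks 1 to 4 had 7.06, 6.50, 6.27 and 6.14. Of these, ranks 1 and 3 had too few reads to count as measured in either genotype. Rank 2 was not measured in wild type, where it had 39 dark and 0 red light reads, so its value rests on the 3 reads set for 0. Of those with the lowest, rank 1 had -6.51 and rank 5 had -4.81, with mutant folds near 1 (0.791 and 0.796). The multi-mapping genes at ranks 1 and 3 from below had -10.69 and -10.45.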

How the results depend on the processing

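Over the scalings tried (library totals, TMM on the mutant pair, DESeq2 1.42.0 size factors, upper quartile, totals without the 100 most abundant genes, the authors' RPKM), singly mapped calls in pubs hy2 ranged from 669 to 734 higher and 329 to 371 lower. The higher genes made 64.3% to 69.0% of calls, and the median log2 fold lay between -0.02 and 0.02. Read and fold limits moved the counts most. Without a minimum number of reads, 1145 singly mapped genes were higher and 981 lower (1246 and 1096 over all genes), 53.9% higher. With 200 reads required it was 401 and 117 (437 and 156), 77.4% higher. At 1.5-fold the counts were 1876 and 1284 (2002 and 1472), and at 3-fold 206 and 54 (238 and 83). Ratios of folds to wild type, 1534 above and 1038 below 1 over 18625 singly mapped genes, became 2795 and 2095 at 1.5-fold, 728 and 479 at 3-fold, and 971 and 646 with an assumed coefficient of variation of 0.2 in each library. That assumption left 667 higher and 311 lower genes in pubs hy2. After thinning, 583 of the 712 higher and 278 of the 340 lower genes were called again, and 6 of the 61 single genes were no longer called, because their 52 to 76 reads became 37 to 49, under the minimum of 50. Their folds, 5.12 to 17.0 before, were 5.47 to 18.4 after thinning. No single gene called higher or lower changed direction under the 8 alternatives run for them. These alternatives could hardly reverse a 2-fold difference, so nothing is drawn from this. The scalings move the folds only slightly, and the assumed spread leaves them unchanged. Thinning only draws fewer reads from the deeper mutant library. Abundant genes that were not called, with folds near 1, did cross it. The gene with most dark reads went from 1.004 to 0.982 under upper-quartile factors. The gene at rank 5 by red light reads went from 0.9991 to 1.007 with totals without the 100 most abundant genes. No paired analysis was possible because pubs hy2 has 1 library in each light, which leaves no pair to compare within the mutant. Read depth limits rare genes: 3 counts corresponded to 0.205 scaled CPM in the dark and 0.134 in red light.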
